A study of Mus musculus with 12 samples.

Results

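The transcripts described here encode the surface machinery with which mouse cells recognise lipopolysaccharide (LPS), the outer membrane glycolipid of Gram-negative bacteria. They are the 5 genes Tlr4, Cd14, Ly96, Cd180 and Ly86, chosen by name, out of 37310 genes in the count table. All 5 were in the table and all 5 passed the filter on low counts that left 12917 genes for testing. In Runx1KO neutrophils, Tlr4 stood above the Control library of the same number in 6 of 6 comparisons, as 7.75% of the tested genes did. Cd14 did so in 5 of 6, and 20.1% of the tested genes did so in at least 5 of 6. Ly96 was higher with LPS than with vehicle in 6 of 6 comparisons, as 3.96% of the tested genes were, and the receptor gene Tlr4 in 2 of 6. These comparisons use each library number more than once, and libraries of a number may share mice. Without the library number in the test model, 0 of the 5 genes were called in any comparison. With it, Tlr4 was called higher in Runx1KO with LPS, where 2.34% of the tested genes were called, and averaged over treatments, where 8% were. The LPS call held in 5 of 15 fits that left libraries out, and the averaged call in 13 of 15.

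CD14 is a surface protein that takes up LPS monomers and hands them to MD-2, the small secreted protein encoded by Ly96. MD-2 holds the lipid part of LPS and sits on the outer domain of TLR4, and the pairing of such complexes starts signalling through the adaptors MyD88 and TRIF to NF-kB. CD180, also called RP105, resembles TLR4 outside the cell but lacks the signalling domain inside it, and it is carried by MD-1, the product of Ly86, a relative of MD-2. CD180 with MD-1 is best known from B cells, and in myeloid cells it has been described as a restraint on TLR4 signalling. Neutrophils carry TLR4 and CD14 on their surface and answer LPS within hours by producing cytokines.

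RNA-seq read counts were available for 12 libraries of bone marrow neutrophils from C57BL/6 mice, in 4 groups of 3: Runx1KO with LPS, Runx1KO with vehicle, Control with LPS and Control with vehicle. The cells were sorted as positive for Ly6G and CD11b and negative for F4/80 and Siglec F, then incubated for 2 h in medium with 100 ng/mL LPS or with vehicle alone. Runx1 encodes a DNA-binding protein needed for blood cell formation, and its loss is compared here for its bearing on the neutrophil response to Toll-like receptor ligands. The design text describes the Control material as LKS- cells of marrow pooled from a Runx1f/f mouse and a Runx1f/- mouse, the second with 1 Runx1 allele mutated in the germline, whereas the labels of the Control libraries describe sorted neutrophils. Not given in the sources used here are the Cre or other means of deletion, the ages of the mice, and whether replicate libraries are separate animals. The p-values therefore describe the spread among these libraries, which may in part be technical.

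Total counts ran from 19023610 to 26225169 per library. Transcripts of the neutrophil list were abundant in every library, with summed levels of 101537 to 153441 CPM (reads of a gene scaled to a common library size). Runx1 itself was counted at 43.7 to 75.4 CPM in Runx1KO libraries, against 26.1 to 56.2 CPM in Control libraries. Reads from outside a deleted part of a gene are still counted, so these levels, which were higher in Runx1KO in 6 of 6 same-numbered pairs, do not check the deletion. In each of the 4 groups the library numbered 2 had 0 reads of Xist and 2729 to 4285 reads of the Y-linked gene Ddx3y, while the libraries numbered 1 and 3 had 900 to 1624 reads of Xist and at most 1 of Ddx3y. The libraries numbered 2 were thus not made from the same animals as those numbered 1 and 3.

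The vehicle libraries did not form a uniform baseline. Nfkbia, an inhibitor of NF-kB that NF-kB itself induces, stood at 3796, 4607 and 397 CPM in Runx1KO vehicle libraries 1, 2 and 3, and at 3517, 3411 and 217 CPM in Control vehicle libraries 1, 2 and 3. With LPS it stood at 4191, 6955 and 7992 CPM in Runx1KO libraries and at 4975, 4906 and 4143 CPM in Control libraries. The vehicle libraries numbered 1 and 2 thus lay close to the LPS libraries, and those numbered 3 far below them. Tnf, a cytokine gene that LPS induces, showed the same split with vehicle, at 1419, 1184 and 73.0 CPM in Runx1KO libraries and 1281, 594 and 28.2 CPM in Control libraries. The LPS differences of the receptor genes are therefore also given for the numbered pairs of libraries.

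Because longer transcripts collect more reads, the 5 genes were compared with each other per kb of exon. In 12 of 12 libraries the order was Cd14, Ly96, Tlr4, Ly86 and Cd180. Cd14 averaged 2868 ± 2617 CPM per kb in Runx1KO LPS libraries, 784 ± 732 in Runx1KO vehicle, 826 ± 494 in Control LPS and 296 ± 226 in Control vehicle libraries (SD, n = 3 each). These levels placed Cd14 between percentiles 98.3 and 99.8 of the tested genes. Ly96 averaged 46.1 ± 49.3, 17.9 ± 14.1, 24.4 ± 15 and 16.4 ± 7.49 CPM per kb in the same order of groups, and Tlr4 averaged 4.80 ± 1.6, 4.36 ± 1.21, 2.03 ± 0.783 and 2.73 ± 1.74 CPM per kb. The signalling receptor was thus the scarcer transcript of the receptor pair, and in no group did the ranges of Ly96 and Tlr4 overlap. Ly86 averaged 1.49 to 2.27 CPM per kb over the 4 groups, and its range overlapped that of Tlr4 in every group. Cd180 averaged 0.0344 to 0.0672 CPM per kb, between percentiles 0.957 and 2.28.

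The balance between the coreceptor and the receptor varied between libraries. The ratio of Ly96 to Tlr4 per kb was 3.08, 5.11 and 20.7 in Runx1KO LPS libraries 1, 2 and 3, and 2.15, 3.23 and 6.12 in Runx1KO vehicle libraries. It was 10.3, 8.07 and 15.4 in Control LPS libraries and 7.77, 7.63 and 4.58 in Control vehicle libraries. The lowest ratio with either treatment was that of the Runx1KO library numbered 1. The genotypes overlapped with either treatment, as did LPS and vehicle in Runx1KO. In Control each LPS library lay above each vehicle library, with a lowest LPS ratio of 8.07 and a highest vehicle ratio of 7.77. How often ratios of other genes separate in this way was not tested.

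**Figure D1:**
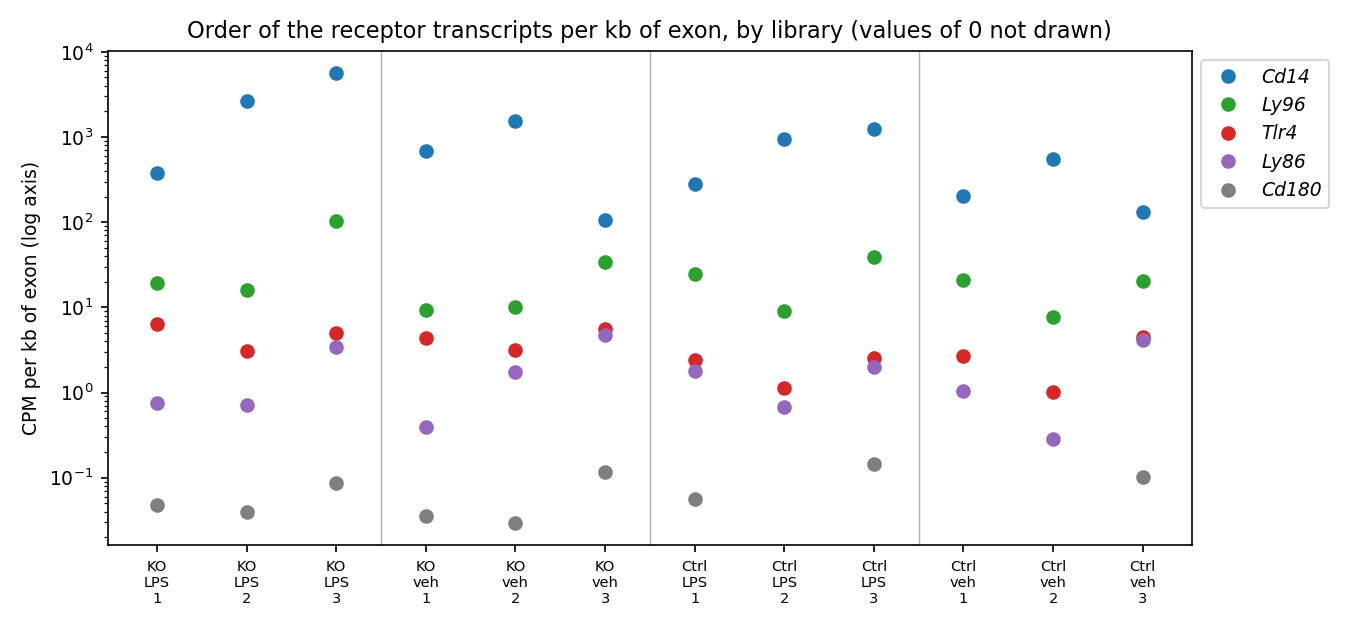
Level of each receptor transcript in CPM per kb of exon (log axis) in the 12 libraries, with KO for Runx1KO, Ctrl for Control and veh for vehicle. Cd14 lies on top in 12 of 12 libraries, Ly96 stays above Tlr4 throughout, and Cd180, at 0 in 3 Control libraries and not drawn there, lies at the bottom.

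Tlr4 encodes the receptor that spans the membrane and signals. It stood at 34.4, 17.0 and 27.2 CPM in Runx1KO LPS libraries 1, 2 and 3, against 13.2, 6.17 and 13.9 CPM in Control LPS libraries. After LPS each Runx1KO library lay above each Control library; 6.51% of the tested genes were higher in this way. With vehicle it stood at 23.6, 17.3 and 30.6 CPM in Runx1KO libraries, against 14.7, 5.55 and 24.6 CPM in Control libraries. The vehicle groups overlapped, since Control library 3 exceeded 2 of the Runx1KO libraries. In bulk RNA a difference in the number of cells of a kind and a difference in RNA per cell cannot be told apart.

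Same-numbered libraries made the genotype difference of Tlr4 plainer. Runx1KO minus Control on the log2 CPM scale was 1.38, 1.45 and 0.96 with LPS and 0.68, 1.62 and 0.31 with vehicle for numbers 1, 2 and 3. All 6 differences were positive, as they were for 7.75% of the tested genes. Tlr4 was lowest in the library numbered 2 in 4 of 4 groups, which held for 5.63% of the tested genes, and this shared offset is removed when libraries are compared within a number.

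Without the library number in the model, the genotype difference of Tlr4 did not pass the threshold. The log2 fold change was 1.24 with LPS (SE 0.50, adjusted p = 0.41), 0.67 with vehicle (SE 0.49, adjusted p = 0.96) and 0.96 averaged over treatments (SE 0.35, adjusted p = 0.185), by edgeR's quasi-likelihood test with Benjamini-Hochberg adjustment over all tested genes. With the number as a block, Tlr4 was called higher in Runx1KO with LPS, at 1.29 (SE 0.28, adjusted p = 0.0455), and averaged over treatments, at 1.06 (SE 0.20, adjusted p = 0.00917), a 2.09-fold difference. With vehicle the blocked value was 0.84 (SE 0.28, adjusted p = 0.2), and 0 of the 5 receptor genes were among the 2.44% called. Tlr4 was 1 of 5 receptor genes called in the blocked average, where 8% of all tested genes were called, and 1 of 5 in the blocked LPS comparison, where 2.34% were.

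The blocked calls of Tlr4 changed when certain libraries were left out. Averaged over treatments, the call was lost without the libraries numbered 1 (1.09, adjusted p = 0.0813) and without those numbered 2 (0.84, adjusted p = 0.189), and it held in the other 13 of 15 fits that left libraries out. With LPS it held in 5 of 15 such fits, those without number 3, Runx1KO LPS 3, Runx1KO vehicle 3, Control vehicle 2 or Control vehicle 3, and each of the remaining libraries and numbers ended it when left out (adjusted p up to 0.356). Vehicle and LPS libraries of a number may share mice, so the average may count some animals more than once. When the vehicle and LPS libraries of a genotype and number were summed, the blocked value was 1.03 (adjusted p = 0.0348 by edgeR). This fit was chosen after seeing the data, and over all genes it called 792, against 166 when summed without the block.

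**Figure D2:**
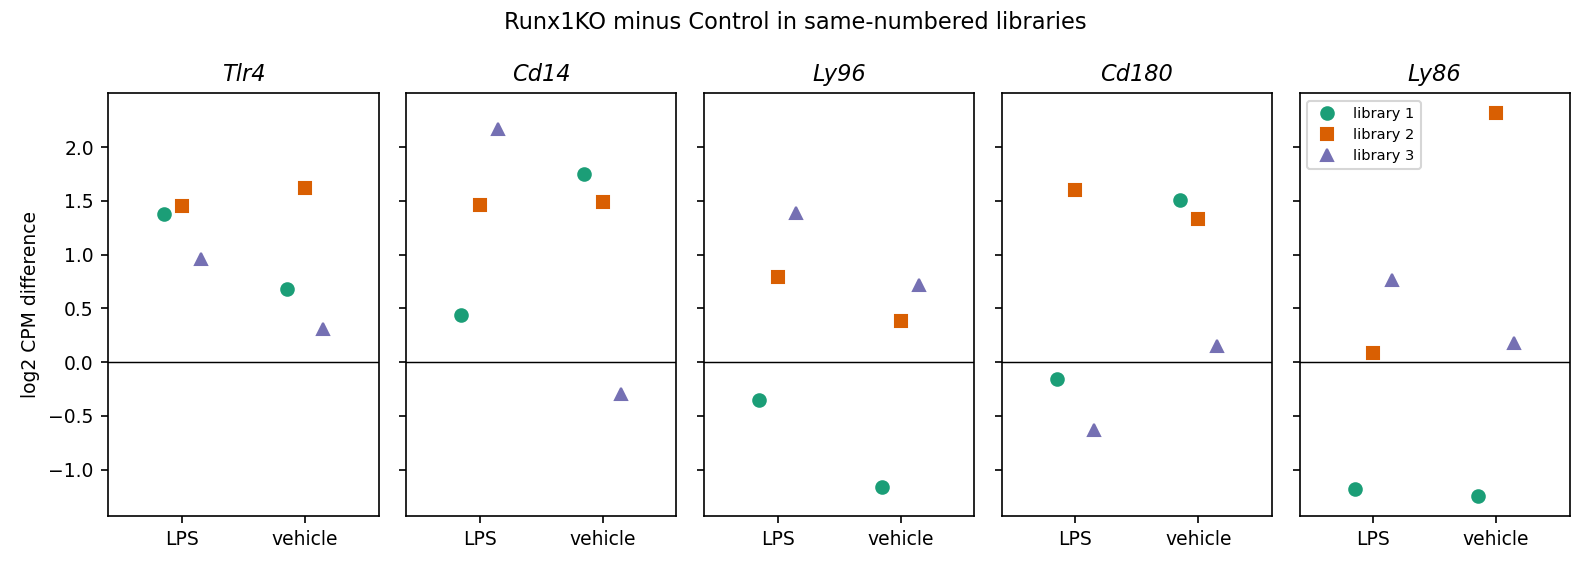
Runx1KO minus Control on the log2 CPM scale (prior count 2) for each receptor gene, with 1 point per pair of same-numbered libraries, LPS left and vehicle right. For Tlr4 the 6 points lie between 0.31 and 1.62, whereas each other gene has points on both sides of 0.

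LPS did not shift Tlr4 in a common direction. LPS minus vehicle was 0.54, -0.02 and -0.17 in Runx1KO pairs 1, 2 and 3, and -0.16, 0.15 and -0.81 in Control pairs on the log2 CPM scale. Only 2 of the 6 differences were positive. The fitted log2 fold change was 0.14 in Runx1KO (SE 0.49, adjusted p = 0.993) and -0.43 in Control (SE 0.49, adjusted p = 1) by edgeR. The Runx1KO value was -0.18 when libraries were scaled by their totals alone, a scaling that moved the median of all genes by -0.28.

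Ly96 encodes MD-2, without which TLR4 does not bind LPS. It stood at 12.3, 10.0 and 65.0 CPM in Runx1KO LPS libraries, against 5.87, 6.43 and 21.6 CPM in Runx1KO vehicle libraries. In Control it stood at 15.7, 5.77 and 24.8 CPM with LPS, against 13.2, 4.91 and 13 CPM with vehicle. The groups overlapped in both genotypes, yet within each number the LPS library was the higher one.

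LPS minus vehicle for Ly96 was 1.05, 0.63 and 1.59 in Runx1KO pairs and 0.25, 0.23 and 0.92 in Control pairs on the log2 CPM scale. Differences above 0 in 6 of 6 pairs were seen for 3.96% of the tested genes. The largest difference in each genotype was that of number 3, whose vehicle library was low in Nfkbia and Tnf, but the pairs numbered 1 and 2 showed the same sign. By edgeR the log2 fold change was 1.36 in Runx1KO (SE 0.79, adjusted p = 0.873), 0.57 in Control (SE 0.78, adjusted p = 1) and 0.97 averaged over genotypes (SE 0.56, adjusted p = 0.883). The average did not pass with the number as a block within each genotype either, at 0.79 (SE 0.17, unadjusted p = 0.00223, adjusted p = 0.556). Without Runx1KO LPS library 3 the Runx1KO value was -0.02.

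Ly96 did not follow Tlr4 between the genotypes. Runx1KO minus Control was -0.35, 0.79 and 1.39 with LPS and -1.16, 0.38 and 0.72 with vehicle for numbers 1, 2 and 3. The libraries numbered 1 thus had less Ly96 in Runx1KO and the other two numbers had more, with either treatment. The averaged log2 fold change was 0.52 (SE 0.55, adjusted p = 0.756 by edgeR), and the blocked one 0.31 (adjusted p = 0.603).

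Cd14 encodes the protein that delivers LPS to the complex, and it is itself induced by LPS in myeloid cells. It stood at 626, 4303 and 9188 CPM in Runx1KO LPS libraries, against 1124, 2559 and 174 CPM in Runx1KO vehicle libraries. In Control it stood at 461, 1563 and 2042 CPM with LPS, against 335, 909 and 214 CPM with vehicle. Its highest and lowest libraries differed 52.8-fold, and both were Runx1KO libraries numbered 3, the highest with LPS and the lowest with vehicle.

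The LPS difference of Cd14 was carried by the libraries numbered 3. LPS minus vehicle was -0.84, 0.75 and 5.72 in Runx1KO pairs and 0.46, 0.78 and 3.26 in Control pairs on the log2 CPM scale. It was positive in 5 of 6 pairs, as it was in at least 5 of 6 for 19.1% of the tested genes. The exception, Runx1KO number 1, was also the pair in which Tnf was lower with LPS, at a difference of -1.54. By edgeR the log2 fold change was 1.87 in Runx1KO (SE 1.02, adjusted p = 0.873), 1.48 in Control (SE 1.01, adjusted p = 1) and 1.68 averaged (SE 0.72, unadjusted p = 0.0374, adjusted p = 0.842). Without the libraries numbered 3 the average was 0.56.

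Between genotypes, Cd14 was higher in Runx1KO in 5 of 6 pairs, as 20.1% of the tested genes were in at least 5 of 6. Runx1KO minus Control was 0.44, 1.46 and 2.17 with LPS and 1.75, 1.49 and -0.30 with vehicle for numbers 1, 2 and 3. The averaged log2 fold change was 1.60 (SE 0.71, adjusted p = 0.309), and with the block it was 1.60 (SE 0.66, adjusted p = 0.191), by edgeR's quasi-likelihood test. Cd14 passed with the block when vehicle and LPS libraries were summed (1.45, adjusted p = 0.00349), without the libraries numbered 3 (1.37, adjusted p = 0.0168) and without Runx1KO vehicle 3 (1.83, adjusted p = 0.0474), all chosen after seeing the data. With the block and without Runx1KO LPS 3, the averaged value was 0.68.

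**Figure D3:**
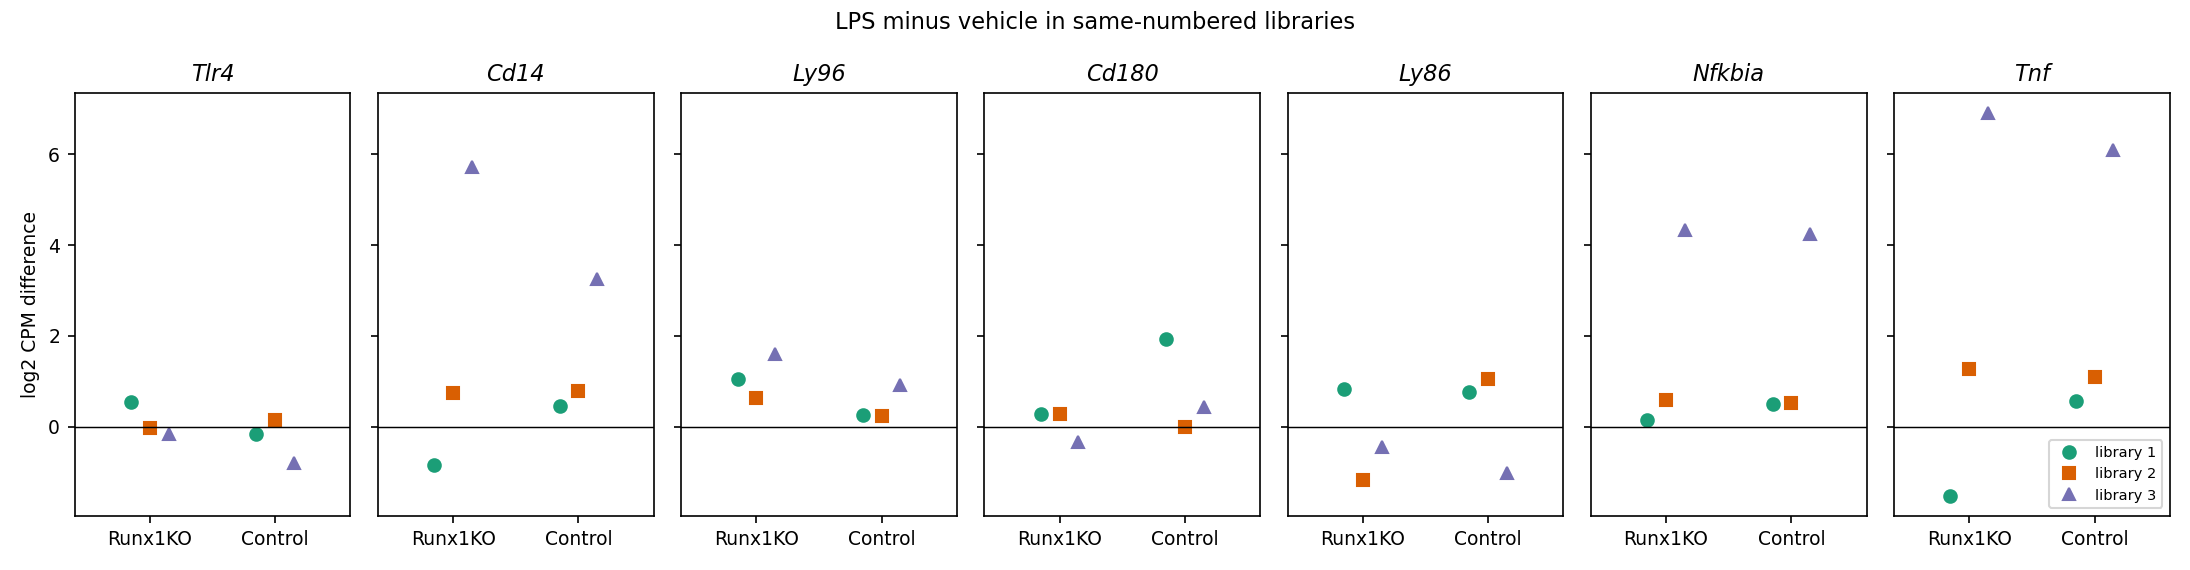
LPS minus vehicle on the log2 CPM scale (prior count 2) for the 5 receptor genes and for Nfkbia and Tnf, with 1 point per pair of same-numbered libraries, Runx1KO left and Control right. The pairs numbered 3 stand apart for Cd14 (5.72 and 3.26), Nfkbia (4.33 and 4.25) and Tnf (6.92 and 6.09), while the points of Ly96 lie between 0.23 and 1.59 and those of Tlr4 on both sides of 0.

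Cd180 and Ly86 encode the TLR4-like complex without a signalling domain. Cd180 had 5, 4 and 7 reads in Runx1KO LPS libraries and 4, 3 and 15 in Runx1KO vehicle libraries. It had 5, 0 and 14 reads in Control LPS libraries and 0, 0 and 11 in Control vehicle libraries. A count of 0 allows up to 3 reads (0.12 to 0.152 CPM in those libraries), so small differences of Cd180 were not detectable at this depth. Of its 4509 exon bases, 182 overlap exons of Mast4, a kinase gene on the opposite strand, in GENCODE M21. The strand setting of the counting was not given, so reads from the overlap are of uncertain origin.

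Ly86 stood at 0.856, 0.809 and 3.88 CPM in Runx1KO LPS libraries, against 2.05, 0.759 and 2.26 CPM in Control LPS libraries. With vehicle it stood at 0.445, 1.95 and 5.33 CPM in Runx1KO libraries, against 1.18, 0.320 and 4.70 CPM in Control libraries. The libraries numbered 3 were the highest in all 4 groups, and the genotypes overlapped with either treatment. The averaged genotype difference was 0.22 for Ly86 (SE 0.71, adjusted p = 0.946) and 0.30 for Cd180 (SE 0.93, adjusted p = 0.944), and the averaged LPS difference was -0.39 (SE 0.71, adjusted p = 0.991) and 0.43 (SE 0.94, adjusted p = 0.993), log2 scale, by edgeR. LPS minus vehicle for Ly86 was 0.82, -1.18 and -0.45 in Runx1KO pairs 1, 2 and 3 and 0.76, 1.05 and -1.03 in Control pairs on the log2 CPM scale, with no common sign in either genotype. For Cd180 it was 0.27, 0.28 and -0.35 in Runx1KO pairs and 1.94, 0 and 0.43 in Control pairs.

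**Figure D4:**
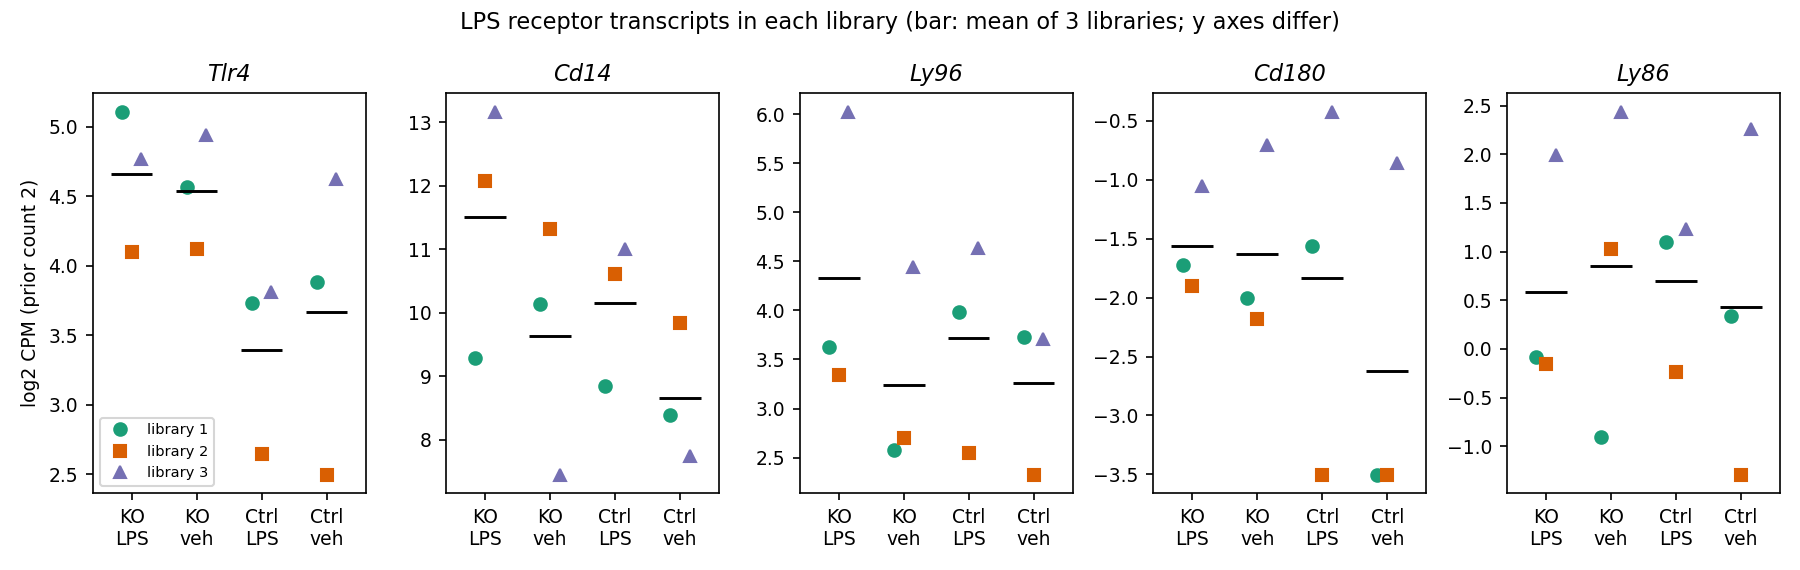
Level of each receptor gene on the log2 CPM scale (prior count 2) in the 12 libraries, with KO for Runx1KO, Ctrl for Control and veh for vehicle; colour and shape give the library number and bars the mean of 3 libraries. For Tlr4 the library numbered 2 is the lowest in every group, and for Cd14 the libraries numbered 3 hold the highest and the lowest level.

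The response to LPS was also compared between the genotypes. The LPS response in Runx1KO minus that in Control was 0.57 for Tlr4 (SE 0.69), 0.39 for Cd14 (SE 1.39), 0.79 for Ly96 (SE 1.10), -1.06 for Cd180 (SE 1.87) and -0.21 for Ly86 (SE 1.42), on the log2 scale. Each had an adjusted p of 1 by edgeR. Over all genes 0 were called in this comparison (0% of 12917), with 77 at an unadjusted p under 0.05 and 0 by DESeq2. The LPS comparisons called 0 genes in either genotype (0%), with 676 genes in Runx1KO and 78 in Control at an unadjusted p under 0.05, and DESeq2 called 1 and 0. A receptor gene without a call is read against these counts over all genes. Between genotypes the model without the block called 119 genes with LPS (0.921%), 123 with vehicle (0.952%) and 527 averaged over treatments (4.08%), and 0 of the 5 receptor genes were among them.

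The genes that act with the receptor were taken from 6 lists, and 0 of their tested members were called in any comparison without the block. In the LPS comparisons and their difference between genotypes, 0 of all 12917 tested genes were called. Between genotypes 0.921% of all tested genes were called with LPS, 0.952% with vehicle and 4.08% averaged over treatments. The NF-kB early response list, transcripts that NF-kB induces soon after a stimulus, had positive LPS differences for 16 of 16 tested genes in both genotypes, with a median log2 fold change of 1.54 in Runx1KO and 1.30 in Control, where all tested genes had medians of 0.03 and -0.02. By numbered pair, its mean level was 7.62, 9.78 and 10.97 with LPS, against 8.45, 8.92 and 5.14 with vehicle, in Runx1KO libraries 1, 2 and 3 (log2 CPM). In Control libraries it was 8.53, 9.09 and 9.52 with LPS, against 8.07, 8.36 and 5.66 with vehicle. The pair numbered 1 in Runx1KO was thus lower with LPS, and in both genotypes the pair numbered 3 had the widest gap. Averaged over genotypes it ran from 0.78 for Rel, a subunit of NF-kB, to 2.89 for Ccl4, a chemokine. After LPS it also had positive genotype differences for 16 of 16 genes, with a median of 0.62 against 0.03 for all genes, but its mean level was lower in Runx1KO than in Control in the libraries numbered 1.

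The medians of the other lists with LPS were smaller, and the difference between lists was not tested. Of all 12917 tested genes, 6442 had a positive LPS difference averaged over genotypes. The adaptors and proximal kinases had a median of 0.18 in the LPS difference averaged over genotypes, with 12 of 16 tested genes positive, from -0.52 for the kinase partner Tab1 to 1.13 for Ticam2, the adaptor that links TLR4 to TRIF. The negative regulators had a median of 0.30, with 16 of 20 positive, from -0.46 for the phosphatase Inpp5d to 1.58 for Socs1, a suppressor of cytokine signalling. Other LPS-binding molecules had a median of 0.50, with 8 of 10 positive, from -0.24 for the scavenger receptor Scarb1 to 1.27 for Casp4, the caspase that binds LPS inside the cell. Chaperones and trafficking genes had a median of 0.07, with 7 of 12 positive, from -1.80 for Rab7b to 0.67 for Rab10, GTPases of vesicle transport. The other Toll-like receptors had a median of 0.20, with 5 of 8 positive, from -0.43 for Tlr5, which senses flagellin, to 1.93 for Tlr9, which senses bacterial DNA. Rab7b and Tlr9 had few reads, with group means of 0.228 to 1.07 CPM and 0.324 to 1.92 CPM, so their values are uncertain. With the block, the LPS difference of Rab7b was -0.19 in Runx1KO and -1.04 in Control, against -1.40 and -2.20 without it. In Runx1KO libraries 1, 2 and 3 the other LPS-binding molecules had mean log2 CPM of 5.63, 6.26 and 6.49 with LPS, against 5.94, 5.92 and 4.81 with vehicle. The adaptors and proximal kinases had 5.02, 5.67 and 6.06 with LPS, against 5.39, 5.56 and 5.32. In Control the means of both lists were higher with LPS in each pair, with the widest gap in number 3.

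With the number as a block, the averaged genotype comparison called 8 of the 82 tested genes of these lists (9.76%), a share near the 8% of all tested genes. Ticam2 averaged 32.8 CPM in Runx1KO LPS libraries and 13.6 in Runx1KO vehicle libraries, against 8.19 in Control LPS and 4.11 in Control vehicle libraries. Its blocked log2 fold change was 1.87 (adjusted p = 0.00639 by edgeR). Traf6, a ubiquitin ligase downstream of MyD88, was higher by 0.67 (adjusted p = 0.0359), Tlr1 by 1.26 (adjusted p = 0.015) and the RNA sensor Tlr7 by 1.20 (adjusted p = 0.0315). The genes called lower were Tlr5 at -2.17 (adjusted p = 0.0128), Atf3, a repressor of cytokine transcription, at -1.67 (adjusted p = 0.00795), the adaptor Dok2 at -1.27 (adjusted p = 0.00378) and Scarb1 at -0.68 (adjusted p = 0.0416). These 8 were named after their values were seen, and without the block none of them was called.

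**Figure D5:**
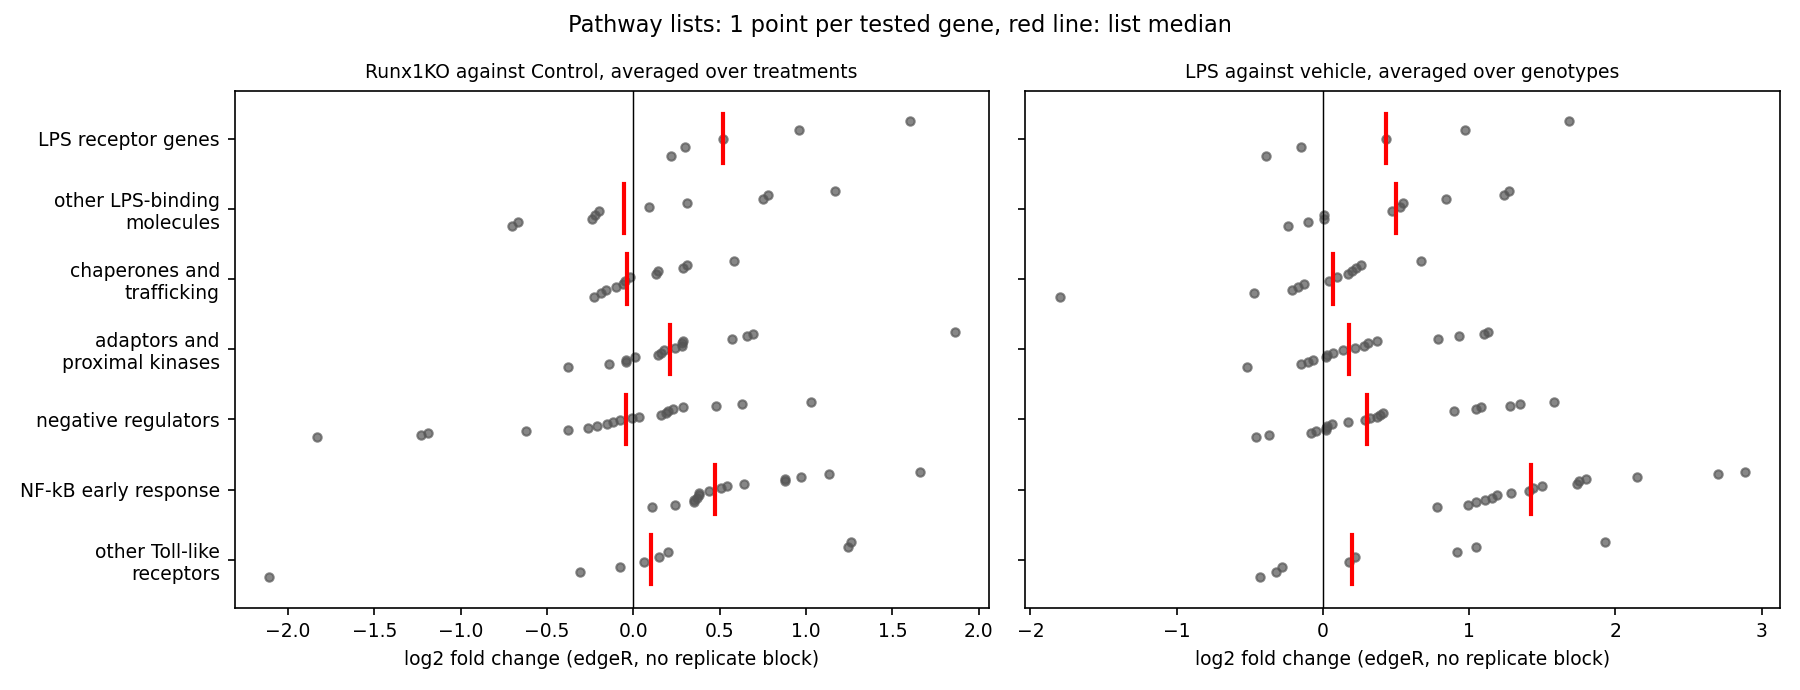
Log2 fold change of each tested gene of the receptor and pathway lists, by edgeR without the block, in the genotype comparison averaged over treatments (left) and the LPS comparison averaged over genotypes (right); red lines are list medians. The NF-kB early response list lies wholly right of 0 in both panels, with medians of 0.48 and 1.43, and the receptor genes have medians of 0.52 and 0.43.

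Transcripts of other cell types were present beside these results, and their part in them was not tested. The monocyte and macrophage list summed to 989 to 3174 CPM in Runx1KO LPS libraries, 772 to 1451 in Runx1KO vehicle, 1633 to 2045 in Control LPS and 1383 to 1756 in Control vehicle libraries. Ly6c2 alone contributed 519 to 1481 CPM to these sums. The mean log2 CPM of the list was 1.91, 2.84 and 3.54 in Runx1KO LPS libraries 1, 2 and 3, against 2.09, 2.10 and 2.95 in Control. With vehicle it was 1.87, 2.52 and 3.07 in Runx1KO, against 1.81, 2.28 and 2.59 in Control. The mean was thus higher in Runx1KO in each pair except number 1 with LPS. Of the 13 tested genes of the list, 9 were higher in Runx1KO averaged over treatments, as 6719 of all 12917 tested genes were. Of the list 1 gene was called, Ly6c2, which fell by 0.82 (adjusted p = 0.0177 by edgeR). Of all tested genes 2.44% were called lower. Adgre1 encodes the F4/80 antigen used in the sort. It stood at 20.1, 318 and 1220 CPM in Runx1KO LPS libraries, against 16.4, 122 and 207 CPM in Control LPS libraries. Cd14 rose in this order of libraries in both LPS groups, and so did the mean level of the NF-kB early response list. With vehicle Adgre1 stood at 24.8, 223 and 47.4 CPM in Runx1KO libraries, against 15.5, 74.9 and 16.4 CPM in Control libraries. There number 2 was the highest, as for Cd14, but number 3, the lowest for Cd14, was not the lowest. Csf1r, which encodes the receptor for macrophage colony-stimulating factor, stood at 59.9 to 741 CPM over the 12 libraries and was highest in Runx1KO LPS library 3, and the adhesion gene Vcam1 stood at 14.3 to 199 CPM. C1qa and Mertk did not exceed 0.282 and 1.96 CPM in any library.

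B lineage genes were lower in Runx1KO. Cd180 and Ly86, which B cells also carry, were not called, and the cells that their reads came from were not tested. Of 11 tested B lineage genes, 11 were lower in Runx1KO averaged over treatments, with a median of -2.13, and 6 were called lower, as 2.44% of all tested genes were. Cd79b, a chain of the B cell receptor, fell by 2.26 (adjusted p = 0.00337) and Fcrla by 3.73 (adjusted p = 0.00114), by edgeR. Ms4a1 had 0 or 1 read in each Runx1KO library, against 18 to 62 reads in Control libraries. Cd180, whose reads are few and may in part be of uncertain origin, had 3 to 15 reads in Runx1KO libraries and 0 to 14 in Control libraries. Ly86 had 8 to 152 reads over the 12 libraries. The summed B lineage level was 35.4 to 306 CPM in Runx1KO LPS, 41.4 to 63.3 in Runx1KO vehicle, 84.4 to 211 in Control LPS and 75.6 to 135 in Control vehicle libraries. Cd74 weighed heavily in these sums, at 122 ± 142 CPM in Runx1KO LPS libraries (SD) and up to 283 CPM in a library. In Runx1KO LPS library 3, which had the sum of 306 CPM, the mean log2 CPM of the list was 0.81. It was 1.68 to 2.84 in Control LPS libraries.

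The remaining marker lists differed between genotypes in the averaged comparison as follows. Of 8 megakaryocyte and platelet genes, 6 were called higher in Runx1KO, as 1.64% of all tested genes were, among them Treml1 at 5.88, Ppbp at 5.25 and Pf4 at 4.11, and Itgb3 was called lower at -0.81. The largest of these are ratios to levels near 0. Treml1 had group means of 0.028 and 0.0835 CPM in Control, against 3.09 and 3.27 in Runx1KO (vehicle, LPS). Ppbp had 0.0547 and 0.301 CPM in Control, against 4.52 and 5.92 in Runx1KO. Of 9 basophil and eosinophil genes, 3 were called lower, as 2.44% of all tested genes were. They were Prss34 and Mcpt8, which had 0 reads in each Runx1KO library, and Ear2 at -6.08. Ccr3 was called higher at 2.11. Of 15 neutrophil genes, Ly6g was called lower at -1.25 (adjusted p = 0.00935 by edgeR), and of 8 dendritic cell genes 0 were called, with a median of -0.11.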

How the data were processed

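Libraries of sorted mouse neutrophils were made with an ultra-low input kit, per the labels' protocols. The submitters' processing notes name STAR 2.6.0a, featureCounts and the build mm9. The values the authors deposited are raw whole-number counts per gene. Strand setting, annotation and filters on reads were not given in the sources used. Genes were filtered (filterByExpr), scaled (TMM, factors 0.699 to 1.2) and tested with edgeR 4.0.16 (quasi-likelihood, R 4.3.3) in 1 model of the 4 groups; p-values were Benjamini-Hochberg adjusted over 12917 genes (threshold 0.05). With 3 against 3 an exact permutation test cannot give a p below 0.1. CPM use TMM-scaled totals, log2 CPM a prior count of 2, and zero counts a floor of 3 counts; intervals and floors cover counting error only. Exon lengths came from GENCODE M21 (GRCm38, another build, so no coordinates are given) and were matched for 95.4% of tested genes.

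Library numbers come from the sample titles. Deviations from group means correlated within numbers at 0.374 to 0.565 between the genotypes of the same treatment, so numbers were taken to pair the genotypes. Between LPS and vehicle the lowest value was 0.00575 within a genotype and -0.0535 across genotypes, both for number 3. No 2 libraries of a group agreed within sampling noise (lowest chi-square per degree of freedom 68.3). Other scalings, no filter, DESeq2 1.42.0, limma-voom 3.58.1, two-group fits, blocks and leaving libraries out were tried. Named genes were the 5 receptor genes, the 3 most like each, Nfkbia, Tnf, Runx1, the called list members (up to 4 per direction) and the ends of each pathway list. A few marker genes under this rule are not reported here. The genes and lists were chosen with earlier results of these data known.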

Additional observations from a re-analysis of the deposited data

How the results depend on the processing

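With libraries scaled by their totals alone, the LPS difference of Tlr4 in Runx1KO was -0.18 and the genotype difference of Ly86 with LPS -0.19, both log2, against 0.14 and 0.11 as reported. DESeq2 called 1 gene for LPS in Runx1KO, 2 for LPS averaged, and 401, 386 and 997 between genotypes (LPS, vehicle, averaged); fits of only the groups compared called 26 and 80 (LPS, vehicle). With limma-voom, signs turned for Cd180 in LPS in Runx1KO (0.05), Ly86 in LPS in Control (0.35), and Cd180 (0.63) and Ly86 (-0.21) between genotypes with LPS. The cause of these changes was not tested.

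With the replicate block, 302, 315 and 1034 genes were called between genotypes (LPS, vehicle, averaged), and signs turned for Cd180 in LPS in Runx1KO (0.18; 0.06 with the block nested in genotype), Ly86 in LPS in Control (0.25; nested 0.20), Ly96 between genotypes with vehicle (-0.05), and Cd180 (0.24) and Ly86 (-0.25) between genotypes with LPS. Of the receptor genes, the block changed the calls of Tlr4 only. Alternatives that joined the block with another choice were chosen after seeing the data. For LPS, vehicle and average they called 267, 256 and 827 genes with total scaling, 309, 321 and 1050 with DESeq2 size factors, 778, 707 and 1644 with DESeq2, 347, 394 and 1130 with limma-voom, and 216 and 504 in fits of the groups compared. Summed libraries gave 166 genes without and 792 with the block. Between genotypes with LPS, Cd180 was 0.14, 0.25, 0.46, 0.04 and 0.15 in these 5 block fits, in that order, and Ly86 -0.40, -0.24, -0.26 and, in the fit of the groups compared, -0.11. Ly96 with vehicle was -0.03 with DESeq2 size factors and with DESeq2. The blocked call of Tlr4 with LPS was lost with total scaling (1.21, adjusted p = 0.15 by edgeR) and in the fit of the groups compared (1.26, adjusted p = 0.0524), and it held in the other 3 of these fits. The cause of the changes with the block was not tested.

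Leaving out each number or library, with and without the block, gave 0 to 394, 1 to 426 and 121 to 1429 called genes between genotypes (LPS, vehicle, averaged). Signs turned within these ranges, the cause of which was not tested. For LPS in Runx1KO, Tlr4 ran from -0.14 to 0.36, Ly96 from -0.02 to 2.24, Cd180 from -0.48 to 0.79 and Ly86 from -1.62 to 0.62. In Control, Tlr4 ran from -0.82 to 0.13, Cd180 from -0.28 to 5.82 and Ly86 from -0.79 to 1.18. Averaged, Tlr4 ran from -0.35 to 0.14, Cd180 from -0.20 to 2.86 and Ly86 from -0.95 to 0.34. Between genotypes with LPS, Ly96 ran from -0.47 to 1.44, Cd180 from -0.80 to 1.02 and Ly86 from -1.02 to 0.60. With vehicle, Ly96 ran from -0.75 to 0.69, Cd180 from -0.06 to 5.68 and Ly86 from -0.79 to 1.78. Averaged, Ly96 ran from -0.22 to 0.98, Cd180 from -0.14 to 2.83 and Ly86 from -0.38 to 0.95. For the difference of LPS responses, Cd14 ran from -0.55 to 1.38, Ly96 from -0.60 to 1.67, Cd180 from -5.91 to 0.16 and Ly86 from -1.67 to 0.90. The genotype difference of Tlr4 stayed positive in these fits, at 0.95 to 1.50 with LPS, 0.28 to 1.23 with vehicle and 0.76 to 1.32 averaged, and without the block it was called in 0 of 15 (averaged adjusted p by edgeR 0.0924 to 0.393).

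With at most 15 reads per library, Cd180 is limited by depth.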

Other observations

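For each receptor gene the 3 genes most like it were taken by Pearson's r of log2 CPM over the 12 libraries among 10771 named genes; the libraries share numbers and groups, so r is a description. Tlr4 was most like Lrrc49 (0.925), Chn2 (0.913) and Nr4a2 (0.909), where 99% of genes lay below 0.776. Cd14 was most like Mapre2 (0.984), Nap1l4 (0.982) and Parp14 (0.976), with a bound of 0.925. Ly96 was most like Rnf135 (0.928), Pfn1 (0.918) and Insig2 (0.911), with a bound of 0.774. Ly86 was most like Nip7 (0.933), Gpr35 (0.918) and Il18 (0.914), with a bound of 0.730. Cd180, at 0 to 15 reads per library, was most like Rasa4 (0.903), Shmt2 (0.888) and Txndc5 (0.888), with a bound of 0.716.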
